A study of Mus musculus with 30 samples.

Results

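The genes described here encode 4 mouse enzymes of lipolysis, the breakdown of stored triglyceride in fat cells: Pnpla2 (adipose triglyceride lipase), Lipe (hormone-sensitive lipase), Mgll (monoglyceride lipase) and Ces1d (a carboxylesterase with triglyceride hydrolase activity). They were chosen by name, as enzymes of this pathway, and all 4 were measured, out of 14763 named genes on the array. Each was read by 1 probe, assigned through the platform's annotation: A_55_P1961039 for Pnpla2, A_51_P435363 for Lipe, A_55_P2063316 for Mgll and A_51_P375969 for Ces1d. Pnpla2 and Lipe lie on chromosome 7, Mgll on chromosome 6 and Ces1d on chromosome 8.

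Lipolysis runs in steps on the surface of the lipid droplet. Pnpla2 takes the first fatty acid off a triglyceride, Lipe acts mainly on the diglyceride that is left, and Mgll splits the remaining monoglyceride into glycerol and a fatty acid, whereas Ces1d is a hydrolase of the endoplasmic reticulum that can also cleave triglyceride. In mature fat cells catecholamines drive the pathway through cyclic AMP and protein kinase A, insulin restrains it, and droplet proteins such as Plin1, Abhd5 and G0s2 hold the lipases in check or switch them on.

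The cells were 3T3-L1, a mouse preadipocyte line that accumulates fat when differentiated in culture, and RNA was measured on 30 arrays with 2 colours. On each array the RNA of a culture, labelled with Cy3, was set against a shared Cy5 reference pooled from control and exposed cells, so every value here is a log2 ratio of sample over reference and says nothing of one gene's level against another's. There were 10 groups of 3 arrays. All cells were confluent for 2 days when the medium was exchanged for one with foetal bovine serum, and all were harvested on day 10; the agents were present for those 10 days. The solvent control was DMSO at 0.1%. MDI, the positive control, was isobutyl methylxanthine (0.5 mM), dexamethasone (0.25 µM) and insulin (10 µg/mL) for 48 h followed by 8 days of insulin alone, which was thus still in the medium at harvest. The other groups received ROSI, TBT, BPA, BBP, DEHP, BP, EB or PP. The labels write out none of these names. By common usage BPA is bisphenol A, ROSI rosiglitazone, TBT tributyltin, DEHP di(2-ethylhexyl) phthalate and BBP benzyl butyl phthalate; BP, EB and PP are kept as codes, and no agent has a dose in the labels. Samples of a group are named biological replicates in the design text, with no word on separate cultures, so the p-values below rest on a spread that may be technical. The number of arrays limits the precision: array medians lay between -0.00315 and 0.0138, and arrays of the same group correlated at 0.542 to 0.892. DMSO and MDI group means correlated at r = -0.512 across 19231 entries, and the ratios keep their direction since the dyes are stated.

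The promoter windows of the enzymes are shown as description, and a link between them and the changes was not tested. RefSeq's table for build GRCm38.p6 held windows for 3 of the 4 genes, and the 250 bases before each start are printed 5′ to 3′ on the gene's own strand, with capitals marking the matches described after them.
Pnpla2, chr7:141454938-141455187, plus strand: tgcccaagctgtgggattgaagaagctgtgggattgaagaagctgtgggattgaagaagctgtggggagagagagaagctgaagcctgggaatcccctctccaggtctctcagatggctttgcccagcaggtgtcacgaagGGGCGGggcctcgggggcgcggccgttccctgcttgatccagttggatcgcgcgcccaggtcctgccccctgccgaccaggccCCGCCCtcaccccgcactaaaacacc
Lipe, chr7:25395988-25396237, minus strand: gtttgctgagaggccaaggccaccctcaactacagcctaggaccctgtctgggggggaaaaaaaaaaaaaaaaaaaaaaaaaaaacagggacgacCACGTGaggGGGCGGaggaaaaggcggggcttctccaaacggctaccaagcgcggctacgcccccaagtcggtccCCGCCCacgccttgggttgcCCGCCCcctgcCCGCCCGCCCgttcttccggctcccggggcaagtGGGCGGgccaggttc
Mgll, chr6:88724162-88724411, plus strand: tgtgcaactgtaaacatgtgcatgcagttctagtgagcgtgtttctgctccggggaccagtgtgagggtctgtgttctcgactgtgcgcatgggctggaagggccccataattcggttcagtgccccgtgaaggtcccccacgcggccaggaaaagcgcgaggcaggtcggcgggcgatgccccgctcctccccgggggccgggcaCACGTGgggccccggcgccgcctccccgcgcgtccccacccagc

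Searched on both strands, none of the windows held the nuclear receptor half-site AGGTCA, which 14.0% of all 32851 windows of that length held. Its direct repeat AGGTCANAGGTCA (0.0335% of windows) and the C/EBP palindrome TTGCGCAA (0.164%) were absent too. At shares this low, a lack of matches in so few windows tells little about the enzymes. Only exact matches just before the listed starts were sought, and Ces1d had no window. Whether sites for nuclear receptors or C/EBP lie elsewhere, or differ in some letters, was not tested. The GC box GGGCGG, present in 32.7% of windows, occurred 2 times before Pnpla2 and 6 times before Lipe, where a pair of matches overlap. The E-box CACGTG, present in 6.02% of windows, occurred once each before Lipe and Mgll. Second start sites are listed for Lipe (chr7:25390113-25390362), whose window held none of these letters, and for Mgll (chr6:88724454-88724703), whose window held 1 GC box.

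**Figure D1:**
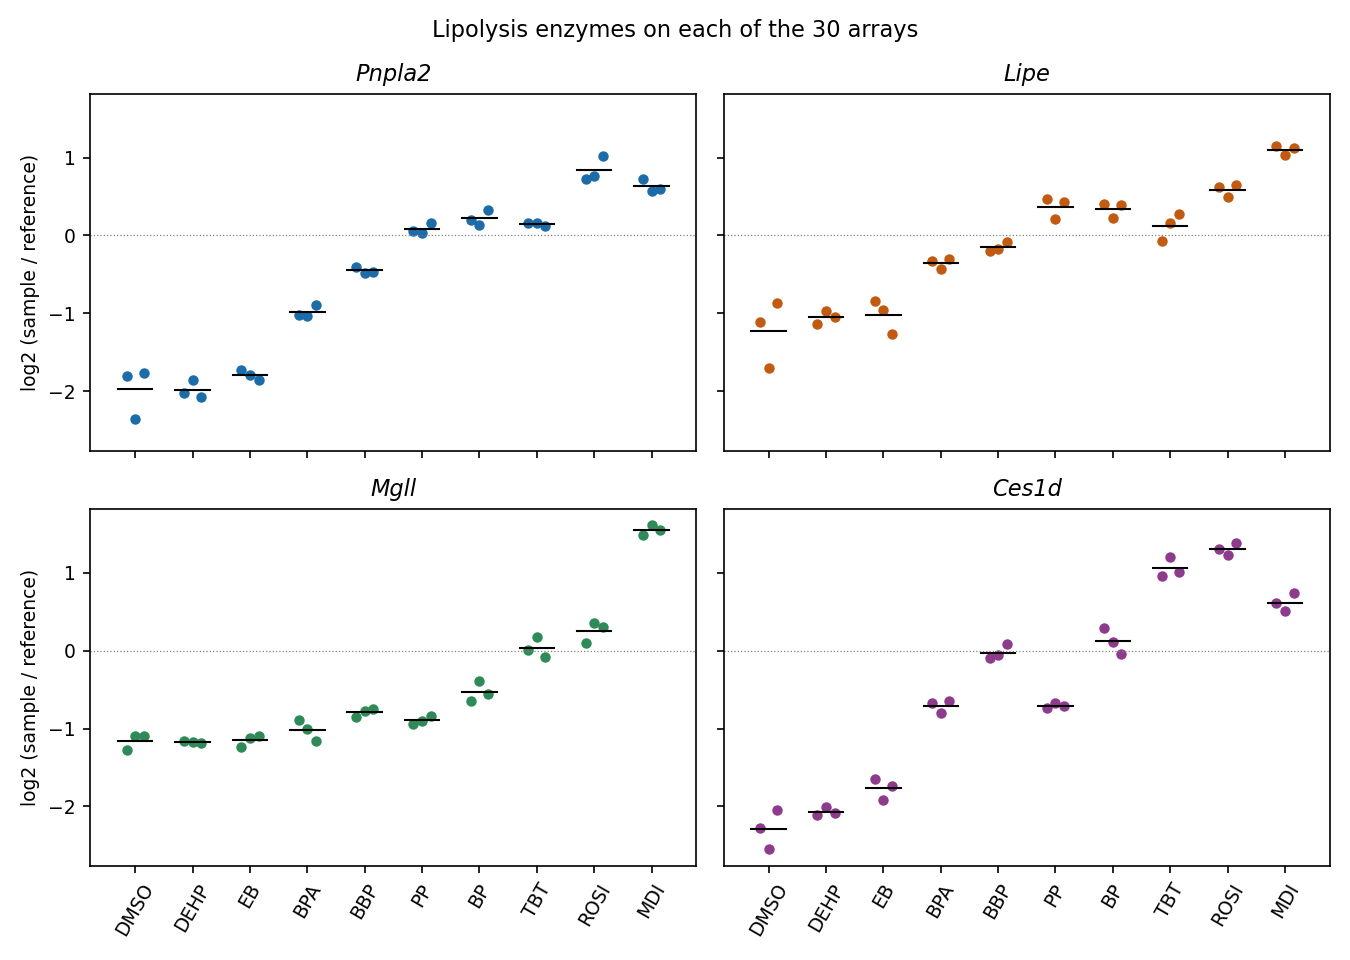
Log2 ratio of sample over reference of each lipolysis enzyme (1 panel each) on every array, by group; points are arrays and bars are group means (3 arrays each). DMSO, DEHP and EB arrays lie at the bottom of the panels, together with BPA arrays for Mgll, MDI arrays are the highest for Lipe and Mgll, and ROSI arrays are the highest for Pnpla2 and Ces1d.

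Pnpla2, the enzyme of the first step, was higher than in the solvent control in 7 of the 9 exposed groups. In DMSO its log2 ratios were -1.81, -2.35 and -1.77, in MDI 0.72, 0.57 and 0.60, and in ROSI 0.73, 0.76 and 1.02. The arrays of both exposed groups lay far above all DMSO arrays, and those of ROSI lay just above those of MDI. The level was 6.10-fold that of DMSO in MDI (log2 2.61 ± 0.10 SE, n = 3 arrays a group) and 7.02-fold in ROSI (2.81 ± 0.10), with adjusted p = 1.07e-16 and 4.77e-17 in limma's moderated test after Benjamini-Hochberg adjustment over all entries, as for every adjusted p given here. BP arrays read 0.20, 0.13 and 0.32, TBT arrays 0.17, 0.16 and 0.13, and PP arrays 0.06, 0.03 and 0.16. These 3 groups overlapped each other in that order and stood between MDI and BBP. Their log2 changes against DMSO were 2.20, 2.13 and 2.06 (SE 0.10 each), or 84.2%, 81.5% and 78.9% of the change in MDI; quantile normalization between arrays took those of TBT and PP to 1.35 and 1.29, still called. BBP arrays (-0.40, -0.48 and -0.47) and BPA arrays (-1.02, -1.04 and -0.90) formed separate steps below them, without overlap with their neighbours in the order. The change was 1.53 ± 0.10 in BBP (adjusted p = 9.12e-11) and 0.99 ± 0.10 in BPA (adjusted p = 1.07e-07), and quantile normalization took the BBP change to 0.65, still called, and the BPA change to 0.16, which ended the call. EB arrays read -1.73, -1.79 and -1.85 and DEHP arrays -2.02, -1.85 and -2.07. Both groups overlapped DMSO, with differences of 0.19 ± 0.10 in EB (95% interval -0.03 to 0.40, adjusted p = 0.445) and 0.00 ± 0.10 in DEHP (-0.22 to 0.21, adjusted p = 0.993); the sign of the EB difference turned under quantile normalization.

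Lipe, which acts on diglyceride and is the lipase most directly switched by protein kinase A, was also higher in the same 7 groups, with the largest value in MDI. Its log2 ratios were -1.11, -1.70 and -0.87 in DMSO and 1.14, 1.03 and 1.13 in MDI. The MDI arrays were the highest of all groups and close together, whereas the DMSO arrays were the most spread (SD 0.43), so the pooled SE of 0.14 can be too small for differences from DMSO. The same holds for the pooled SE of 0.10 of Pnpla2 and Ces1d. Their DMSO arrays were also more spread than those of any other group (SD 0.33 and 0.25). The level in MDI was 5.01-fold that of DMSO (log2 2.32 ± 0.14, adjusted p = 2.55e-13). ROSI arrays read 0.62, 0.49 and 0.65, PP arrays 0.47, 0.21 and 0.43, BP arrays 0.41, 0.22 and 0.40, and TBT arrays -0.07, 0.16 and 0.27. ROSI stood between MDI and PP without overlap, PP overlapped BP, and BP overlapped TBT. Log2 changes against DMSO were 1.81 in ROSI, 1.59 in PP, 1.57 in BP and 1.34 in TBT (SE 0.14 each), or 77.9%, 68.4%, 67.3% and 57.8% of that in MDI. BBP arrays (-0.20, -0.18 and -0.09) and BPA arrays (-0.33, -0.43 and -0.30) followed, with changes of 1.07 ± 0.14 (adjusted p = 4.02e-06) and 0.87 ± 0.14 (adjusted p = 3.82e-05). Under quantile normalization these became 0.60 and 0.40, still called. EB arrays (-0.84, -0.96 and -1.26) and DEHP arrays (-1.13, -0.96 and -1.05) overlapped each other and DMSO. Their differences from DMSO were 0.20 ± 0.14 (95% interval -0.08 to 0.48, adjusted p = 0.555) and 0.17 ± 0.14 (-0.11 to 0.45, adjusted p = 0.685).

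Mgll, the enzyme of the last step, differed from the other enzymes in how far below MDI the other groups stood. Its log2 ratios were -1.27, -1.10 and -1.10 in DMSO and 1.49, 1.61 and 1.55 in MDI. No other array came near the MDI arrays, which lay 6.53-fold above DMSO (log2 2.71 ± 0.08, adjusted p = 2.12e-19). ROSI arrays read 0.09, 0.35 and 0.30, and TBT arrays 0.00, 0.17 and -0.08. These groups overlapped each other and stood between MDI and BP; their changes against DMSO were 1.41 ± 0.08 (2.65-fold) and 1.19 ± 0.08 (2.28-fold), 51.9% and 43.9% of that in MDI, and the TBT change became 0.77 under quantile normalization, still called. BP arrays read -0.64, -0.39 and -0.56, BBP arrays -0.86, -0.77 and -0.74, and PP arrays -0.95, -0.90 and -0.83. BP stood above BBP without overlap, and BBP and PP overlapped. Mgll rose by 0.63 ± 0.08 in BP (adjusted p = 9.80e-07), by 0.37 ± 0.08 in BBP (adjusted p = 0.00246) and by 0.26 ± 0.08 in PP (adjusted p = 0.0163), or 23.1%, 13.5% and 9.64% of the change in MDI, but under quantile normalization all 3 signs turned (-0.04, -0.24 and -0.48, the last with adjusted p = 0.000269). The PP call was also lost without DMSO replicate 1 (0.20, adjusted p = 0.106) or PP replicate 3 (0.23, adjusted p = 0.0792). In BPA the arrays read -0.90, -1.004 and -1.16 and overlapped DMSO, with a difference of 0.14 ± 0.08 (95% interval -0.02 to 0.30, adjusted p = 0.248) that quantile normalization turned to -0.33 (adjusted p = 0.0138). EB arrays (-1.24, -1.12 and -1.09) and DEHP arrays (-1.16, -1.18 and -1.18) lay on top of the DMSO arrays. The differences were 0.00 ± 0.08 in EB (-0.16 to 0.16) and -0.02 ± 0.08 in DEHP (-0.18 to 0.14).

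Ces1d had the largest change of the 4 enzymes in MDI, ROSI, TBT, BP, BBP and BPA, and in ROSI and TBT it exceeded its own level in MDI. Its log2 ratios were -2.28, -2.55 and -2.05 in DMSO, 0.61, 0.50 and 0.73 in MDI, 1.30, 1.22 and 1.38 in ROSI and 0.96, 1.20 and 1.01 in TBT. None of these 4 groups overlapped another. Against DMSO the level was 12.1-fold in ROSI (log2 3.59 ± 0.10, adjusted p = 2.45e-19), 10.2-fold in TBT (3.35 ± 0.10, adjusted p = 3.85e-18) and 7.51-fold in MDI (2.91 ± 0.10, adjusted p = 5.89e-18). Counted from the highest fold change down, Ces1d was number 14 of the 14763 named genes in ROSI, number 10 in TBT and number 47 in MDI. BP arrays read 0.28, 0.11 and -0.04 and BBP arrays -0.10, -0.05 and 0.08. They overlapped each other and were 5.32-fold (2.41 ± 0.10) and 4.82-fold (2.27 ± 0.10) above DMSO. In BBP only 6 named genes had a higher fold change than Ces1d, whose rank was 7. BPA arrays (-0.67, -0.81 and -0.64) and PP arrays (-0.74, -0.68 and -0.71) overlapped, with changes of 1.59 ± 0.10 and 1.58 ± 0.10. Under quantile normalization those became 0.62 and 0.41, and the changes in BP and BBP 1.52 and 1.34, all still called. EB arrays read -1.65, -1.91 and -1.74, all above the DMSO arrays, and DEHP arrays -2.11, -2.01 and -2.08, which overlapped DMSO. Ces1d was the only enzyme called in EB, 1.44-fold above DMSO (0.53 ± 0.10, adjusted p = 0.0166), and that call was lost without DMSO replicate 1 (0.53, adjusted p = 0.0540) or DMSO replicate 2 (0.40, adjusted p = 0.0997), with only DMSO and EB in the fit (adjusted p = 0.675) and under quantile normalization (0.16, adjusted p = 0.646). In DEHP the difference was 0.23 ± 0.10 (95% interval 0.02 to 0.43), with adjusted p = 0.385.

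The array held 2 other members of the Ces1 gene cluster, and they moved apart. Ces1f, which lies 2 genes from Ces1d, rose in 7 groups, by 2.85 ± 0.11 in MDI, 2.44 in ROSI, 1.85 in PP, 1.73 in TBT, 1.46 in BP, 1.04 in BBP (0.30 and no longer called under quantile normalization) and 1.00 in BPA. Ces1a, 3 genes away on the other side, fell by 1.51 ± 0.07 in MDI, 1.02 in PP, 0.81 in ROSI, 0.78 in BP, 0.74 in TBT, 0.70 in BPA and 0.34 in BBP. The genes of this cluster are close relatives, and whether the Ces1d or Ces1f probe also binds RNA of other cluster members was not tested, so their values are uncertain to that extent. Ces1a going down while Ces1d and Ces1f went up is a measurement of 3 probes and not of the cluster as a whole.

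**Figure D2:**
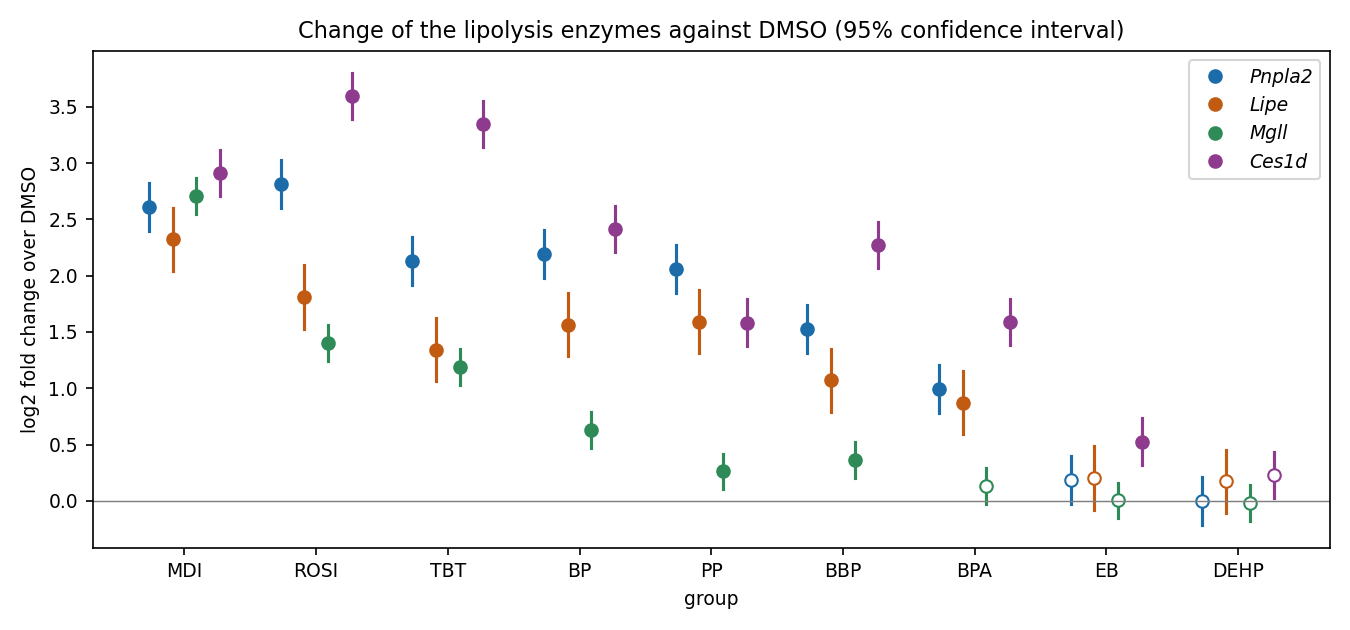
Log2 fold change of each lipolysis enzyme over DMSO by group, with 95% confidence intervals from the fit (3 arrays a group); filled points passed an adjusted p of 0.05 and open points did not. Points of MDI lie between 2.32 and 2.91, points of TBT spread from 1.19 to 3.35, and those of DEHP lie between -0.02 and 0.23.

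MDI was the positive control for turning these cells into fat cells, and the 4 enzymes rose to a similar extent, by 2.32 to 2.91 on the log2 scale. All 4 were called higher, against 20.1% of 19231 entries called higher and 38.4% called in either direction; their median change was 2.66 against a median of 0.00 for all entries. Of 12 measured direct regulators of the lipases, 10 rose and 1 fell. The droplet coat protein Plin1, which shields stored fat and binds Abhd5, rose by 3.60 ± 0.09, the Pnpla2 inhibitor G0s2 by 3.06 ± 0.10 and the Pnpla2 activator Abhd5 by 1.46 ± 0.04. The fatty acid carrier Fabp4 (4.58 ± 0.13), which binds Lipe, and the droplet fusion protein Cidec (4.43 ± 0.12) rose most in the list, and the broadly expressed droplet protein Plin3 fell by 0.45 ± 0.06. Quantile normalization shrank the changes of the 4 enzymes in MDI to between 1.34 and 1.72, all still called.

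The signalling genes around the lipases changed in both directions in MDI, where 38.4% of all entries were called. Of 17 measured genes of the adrenergic and cyclic AMP arm, 6 rose and 6 fell; without DMSO replicate 2, a setting chosen after its low values for 3 of the enzymes were seen, 5 rose and 3 fell. The list of that arm also holds Npr1, Npr2 and Prkg1, genes of cyclic GMP signalling, and its counts here and below include them. The largest rise in the list was that of Prkar2b, a regulatory subunit of protein kinase A (1.44 ± 0.05), followed by the kinase anchor Akap1 (0.96 ± 0.09). The natriuretic peptide receptor Npr2 fell by 0.45 ± 0.05. Prkaca, a catalytic subunit of the kinase, differed by 0.13 (adjusted p = 0.208), and the beta-adrenergic receptors, Adrb3 among them, were not measured. Of 19 measured genes of the antilipolytic arm, which insulin and inhibitory receptors use to hold lipolysis back, 8 rose and 3 fell. Pde3b, the phosphodiesterase through which insulin lowers cyclic AMP, rose by 1.89 ± 0.06, the nicotinic acid receptor Hcar2 by 1.43 ± 0.10 and the short-chain fatty acid receptor Ffar2 by 2.49 ± 0.25, while the neuropeptide Y receptor Npy1r fell by 0.95 ± 0.11. Among 14 other lipases and related hydrolases 4 rose, Lpl by 1.92 ± 0.06, and 3 fell, a number of calls not far from the share over all entries. Among 9 genes that handle glycerol and fatty acids 4 rose, led by the fatty acid transporter Cd36 (4.18 ± 0.10), and 1 fell (0 under quantile normalization or without DMSO replicate 2).

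ROSI, an agonist of the fat cell regulator PPAR gamma, raised the 4 enzymes by unequal amounts, from 1.41 for Mgll to 3.59 for Ces1d. All 4 were called higher, against 16.5% of entries (30.8% in either direction). Of the direct regulators 9 rose and 2 fell: Cidec (4.27 ± 0.12), Plin1 (2.77 ± 0.09), Plin4 (2.73 ± 0.06), G0s2 (2.31 ± 0.10) and Abhd5 (1.44 ± 0.04) were higher, and Plin3 (-0.23 ± 0.06) and the Pnpla2 inhibitor Hilpda (-0.17 ± 0.05) were lower. In the cyclic AMP arm 7 rose and 3 fell (6 and 1 without DMSO replicate 2), with Prkar2b at 1.23 ± 0.05 and Akap1 at 1.13 ± 0.09. In the antilipolytic arm 6 rose and 4 fell, Pde3b rising by 1.13 ± 0.06 and the phosphodiesterase Pde4b falling by 0.52 ± 0.13. Of the handling genes 5 rose, among them the glycerol channel Aqp7 (0.65 ± 0.07), and 0 fell.

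TBT, an organotin compound, also raised the 4 enzymes by unequal amounts, from 1.19 for Mgll to 3.35 for Ces1d. The 4 calls, all higher, compare with 14.1% of entries called higher and 24.7% in either direction. Plin1 (2.27 ± 0.09), G0s2 (1.71 ± 0.10) and Abhd5 (0.78 ± 0.04) were among 10 direct regulators that rose, and Plin3 (-0.31 ± 0.06) was the 1 that fell. Prkar2b rose by 1.08 ± 0.05 and Pde3b by 0.70 ± 0.06. The cyclic AMP arm had 6 genes higher and 2 lower (5 and 1 without DMSO replicate 2), and the antilipolytic arm 6 higher and 3 lower, including the insulin receptor substrates Irs2 (1.10 ± 0.13) and Irs1 (-0.39 ± 0.09).

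BP and PP raised Pnpla2 and Lipe nearly as far as each other, with smaller changes of Mgll. In each group all 4 enzymes were called higher, against 12.9% of entries in BP (21.6% in either direction) and 12% in PP (20.2% in either direction); as given with the Mgll values, the direction of Mgll turned in both under quantile normalization, after which 3 enzymes were called higher in each and Mgll was called lower in PP. In BP 8 direct regulators rose and 1 fell, and in PP 8 rose and 2 fell; under quantile normalization 7 rose and 3 fell in each, and without DMSO replicate 2 the counts in PP were 8 and 1. Plin1 rose by 2.84 ± 0.09 in BP and 2.54 ± 0.09 in PP, G0s2 by 1.25 ± 0.10 and 1.20 ± 0.10, and Abhd5 by 0.92 ± 0.04 and 0.86 ± 0.04. Prkar2b rose by 0.68 ± 0.05 and 1.07 ± 0.05 in the same order. Pde3b rose by 0.46 ± 0.06 in BP and by 0.40 ± 0.06 in PP, but under quantile normalization neither was called (0.02 and -0.02). Ffar2 (1.52 in BP and 1.91 in PP), Irs2 (0.87 and 0.59) and Hcar2 (0.47 and 0.35) were called higher too. No gene of the antilipolytic arm was called lower in either group. The adenylyl cyclase Adcy7 fell by 0.29 ± 0.05 in BP and by 0.45 ± 0.05 in PP, and Npr2 was called lower in BP (-0.17). Another cyclase, Adcy6 (0.30 in BP and 0.25 in PP), and Akap1 (0.37 and 0.54) were called higher in both.

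In BBP and BPA the enzymes were raised less. All 4 were called higher in BBP, where 6.9% of entries were (9.25% in either direction), and 3 of 4, all but Mgll, in BPA, where 12.3% of entries were (19.3% in either direction). Under quantile normalization 3 were higher in BBP, and in BPA 2 were higher and Mgll was lower. Of the direct regulators 9 rose in BBP and 8 in BPA, and 0 fell in either; under quantile normalization 6 rose in BBP, and 7 rose and 2 fell in BPA. Plin1 rose by 1.77 ± 0.09 in BBP and 2.20 ± 0.09 in BPA, G0s2 by 0.86 ± 0.10 (0.02 and no longer called under quantile normalization) and 1.28 ± 0.10, and Abhd5 by 0.45 ± 0.04 and 0.55 ± 0.04. Pde3b rose by 0.31 ± 0.06 in BBP, with its sign turned under quantile normalization (-0.09), and differed from DMSO by 0.08 (adjusted p = 0.425) in BPA. In the antilipolytic arm 3 genes were higher in BBP (1 without DMSO replicate 2), and 4 were higher and 2 lower in BPA (2 and 0 without it). Under quantile normalization 0 were higher and 1 lower in BBP, and 1 was higher and 3 lower in BPA.

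EB and DEHP left the enzymes close to the solvent control. In EB 1 of 4 was called, Ces1d, against 0.681% of entries called (0.432% higher). In DEHP 0 of 4 were called by limma, against 0.0156% of entries (3 of 19231, or 0.0104% higher); at an unadjusted p under 0.05 there were 1 enzyme, Ces1d, and 2148 entries. The signs of Lipe and Pnpla2 in EB, and of Lipe and Mgll in DEHP, turned without DMSO replicate 2. In EB the 1 direct regulator called was Fabp4 (0.86 ± 0.13, adjusted p = 0.00318), and Lpl (0.36 ± 0.06) and Cd36 (0.52 ± 0.10) rose too; under quantile normalization none of these 3 was called (0.51, 0.16 and 0.11). No gene of any of the lipolysis lists was called in DEHP, where Abhd5 differed by 0.04, G0s2 by -0.04, Pde3b by 0.05 and Prkar2b by 0.06.

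**Figure D3:**
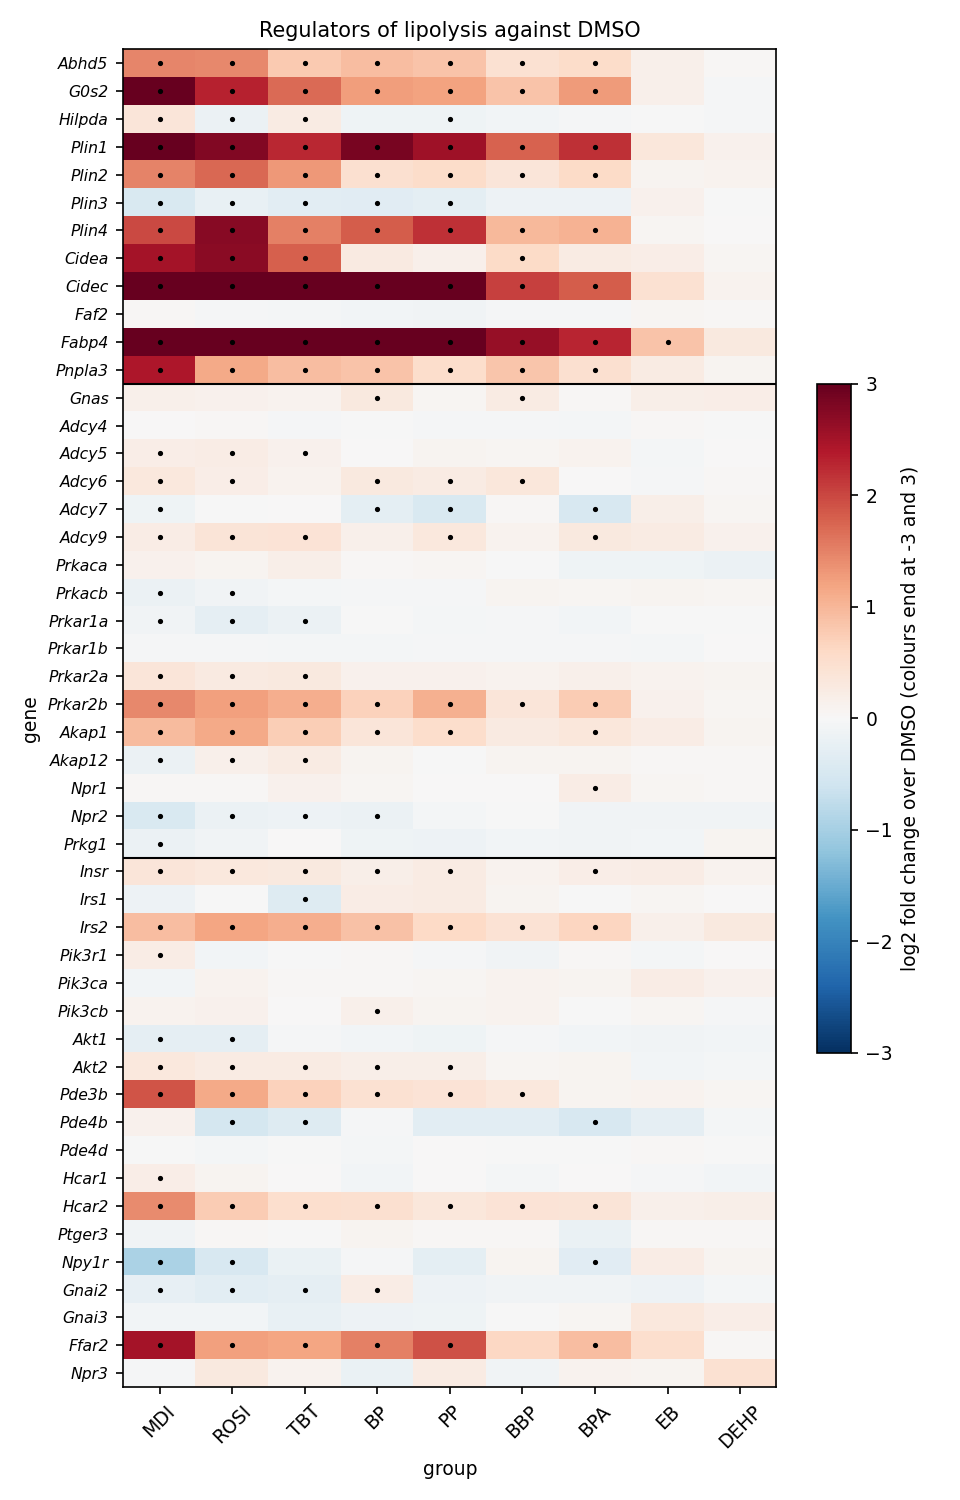
Log2 fold change over DMSO of the 12 direct regulators, 17 genes of the cyclic AMP arm and 19 of the antilipolytic arm (blocks from top to bottom, parted by lines) in the 9 exposed groups; red is higher, blue is lower, colours end at -3 and 3, and dots mark an adjusted p under 0.05. The top block is red and dotted in 7 groups for Abhd5, G0s2 and Plin1, whereas most genes of the lower blocks lie near 0. Exceptions include rises of Prkar2b, Akap1, Irs2, Pde3b, Hcar2 and Ffar2 and falls of Npy1r in MDI and Pde4b in ROSI. The cyclic AMP block includes Npr1, Npr2 and Prkg1, genes of cyclic GMP signalling.

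Direct comparisons asked whether the agents differed from each other, which comparisons sharing the DMSO arrays cannot show side by side. ROSI and MDI ordered the enzymes differently. Mgll was 2.46-fold lower in ROSI than in MDI (log2 -1.30 ± 0.08, adjusted p = 2.86e-12; -0.75 and still called under quantile normalization) and Lipe 1.43-fold lower (-0.51 ± 0.14, adjusted p = 0.00684; -0.09 and no longer called under quantile normalization), whereas Ces1d was 1.61-fold higher (0.68 ± 0.10, adjusted p = 8.99e-06). Pnpla2 was 0.20 ± 0.10 higher, which did not pass (95% interval -0.01 to 0.42, adjusted p = 0.191) except under quantile normalization (0.33, adjusted p = 0.000599). These 3 calls compare with 20.3% of all entries. The log2 ratios between the enzymes on an array were also compared between ROSI and MDI. The ratio of Mgll over Ces1d shifted by -1.98, that of Pnpla2 over Mgll by 1.51, that of Lipe over Ces1d by -1.20, that of Lipe over Mgll by 0.79, that of Pnpla2 over Lipe by 0.72 and that of Pnpla2 over Ces1d by -0.48. The arrays of the groups did not overlap in any of these 6 differences, and each exact permutation p was 0.1 (two-sided, n = 3 arrays a group), the smallest that 3 arrays against 3 allow, so none could pass 0.05; adjusted over the 6 it stayed 0.1. Quantile normalization kept the 6 signs and gave shifts of -1.51, 1.08, -0.85, 0.66, 0.42 and -0.43 in the same order.

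The regulators around the enzymes also differed between ROSI and MDI. Plin4 was 0.74 ± 0.06 higher in ROSI. Lower in ROSI were Plin1 (-0.83 ± 0.09), G0s2 (-0.75 ± 0.10), Pnpla3, a relative of Pnpla2 (-1.30 ± 0.12), Pde3b (-0.76 ± 0.06) and Hcar2 (-0.67 ± 0.10). Abhd5 was not called. Of the 12 direct regulators 2 were higher and 4 lower, where 20.3% of all entries were called in either direction.

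TBT stood below MDI for 3 enzymes and above it for Ces1d. Mgll (-1.52 ± 0.08, adjusted p = 9.04e-14), Lipe (-0.98 ± 0.14, adjusted p = 3.04e-06) and Pnpla2 (-0.48 ± 0.10, adjusted p = 0.000725) were lower, and Ces1d was higher (0.44 ± 0.10, adjusted p = 0.00124); 28.2% of entries were called in this comparison. Under quantile normalization the 4 differences were -0.94, -0.43, -0.20 and 0.76 in the same order, all still called. Against ROSI, TBT gave less Pnpla2 (-0.69 ± 0.10, adjusted p = 2.42e-05) and less Lipe (-0.47 ± 0.14, adjusted p = 0.0163), against 17.8% of entries called. The Lipe call was lost without ROSI replicate 1 (-0.45), ROSI replicate 3 (-0.44) or TBT replicate 1 (-0.37). Mgll (-0.22 ± 0.08, 95% interval -0.38 to -0.06, adjusted p = 0.0532) and Ces1d (-0.24 ± 0.10, -0.45 to -0.04, adjusted p = 0.101) did not pass, and the sign of the Ces1d difference turned under quantile normalization (0.00). The Mgll difference passed with the replicate number as a block (adjusted p = 0.0274), with array weights, and without ROSI replicate 1 (-0.30) or TBT replicate 2 (-0.29).

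BBP and DEHP are both diesters of phthalic acid that differ in the alcohols attached, BBP carrying a benzyl and a butyl group and DEHP the same branched alkyl group on either side. Times were the same and doses are not in the labels, so these comparisons are of the cultures as labelled. All 4 enzymes were lower in DEHP than in BBP, where 5.68% of entries were called. Ces1d was 4.11-fold lower (-2.04 ± 0.10, adjusted p = 4.00e-13), Pnpla2 2.89-fold (-1.53 ± 0.10, adjusted p = 1.12e-10), Lipe 1.86-fold (-0.90 ± 0.14, adjusted p = 6.31e-05) and Mgll 1.30-fold (-0.38 ± 0.08, adjusted p = 0.00204), the last with its sign turned under quantile normalization (0.20). The other 3 differences shrank to -1.29, -0.72 and -0.54 in that setting, still called. BPA, a bisphenol, gave less Pnpla2 (-0.53 ± 0.10, adjusted p = 0.00116) and less Ces1d (-0.68 ± 0.10, adjusted p = 5.91e-05) than BBP, with 9.78% of entries called. Lipe differed by -0.20 ± 0.14 (95% interval -0.48 to 0.08, adjusted p = 0.422). Mgll differed by -0.23 ± 0.08 (-0.39 to -0.07, adjusted p = 0.0627), and passed with the replicate block (adjusted p = 0.0334) and without BPA replicate 1 (-0.29).

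BP and PP, which stood side by side for Pnpla2 and Lipe, parted for the other enzymes. Ces1d was 1.78-fold higher in BP than in PP (0.83 ± 0.10, adjusted p = 9.26e-06), number 16 from the highest fold change among named genes, and Mgll 1.29-fold higher (0.36 ± 0.08, adjusted p = 0.00577), with 4.16% of entries called. The Mgll call was lost without BP replicate 2 (0.30, adjusted p = 0.0535). Pnpla2 differed by 0.14 ± 0.10 (95% interval -0.08 to 0.35, adjusted p = 0.643) and Lipe by -0.03 ± 0.14 (-0.31 to 0.25, adjusted p = 0.977).

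**Figure D4:**
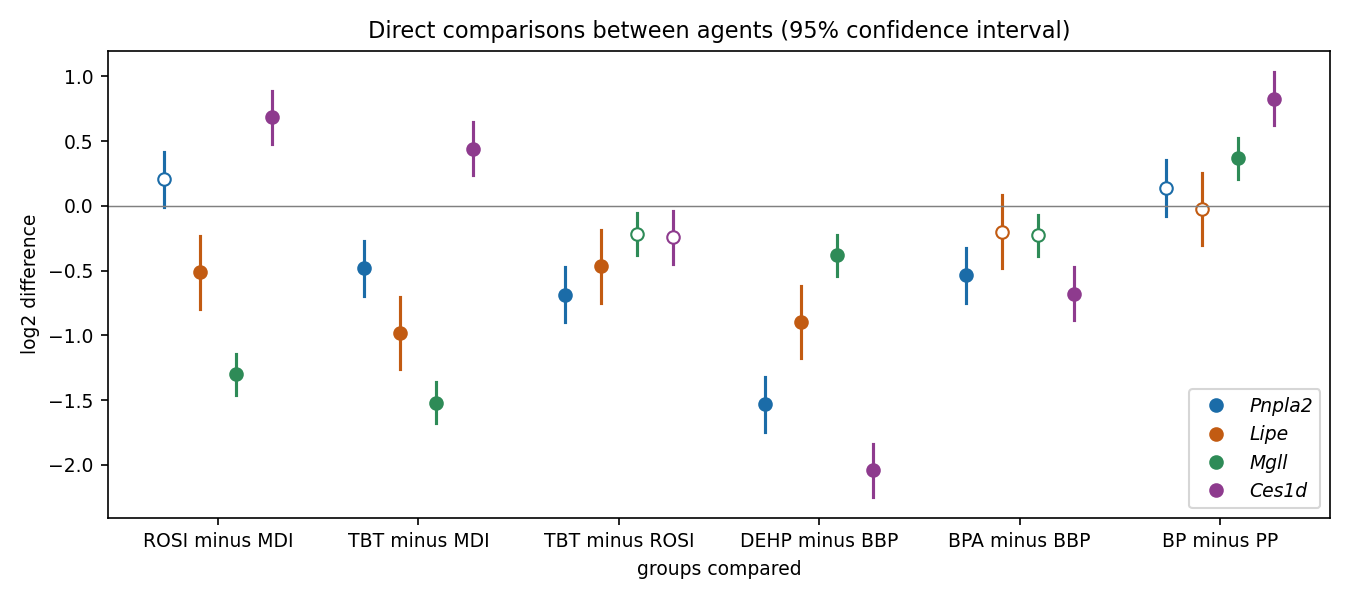
Log2 difference of each lipolysis enzyme between agents, with 95% confidence intervals (3 arrays a group); filled points passed an adjusted p of 0.05. In ROSI against MDI the enzymes run from -1.30 (Mgll) to 0.68 (Ces1d), and in DEHP against BBP all 4 lie below 0.

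The enzymes moved with the extent of fat cell marker expression, but not all alike. Averaged over 17 measured markers of mature fat cells, the mean log2 ratio of the arrays ran from -2.26 to -1.92 in DMSO, 1.18 to 1.24 in MDI, 0.43 to 0.56 in ROSI, 0.07 to 0.14 in BP, -0.08 to 0.01 in TBT, -0.08 to -0.01 in PP, -0.65 to -0.52 in BBP, -0.89 to -0.76 in BPA, -1.83 to -1.65 in EB and -2.002 to -1.93 in DEHP. All 17 markers rose in MDI, 16 each in ROSI, TBT, BP and PP, 15 each in BBP and BPA, 5 in EB (1 without DMSO replicate 2 and 0 under quantile normalization) and 0 in DEHP, with median changes of 4.00 in MDI, 2.77 in ROSI, 2.27 in TBT, 2.46 in BP, 2.21 in PP, 1.68 in BBP, 1.40 in BPA, 0.34 in EB and 0.10 in DEHP; under quantile normalization the sign of Retn turned in ROSI, TBT and BPA and that of Adipor2 in BPA. Over all entries, the share called higher ran from 0.0104% in DEHP to 20.1% in MDI. In bulk RNA, more cells turned into fat cells and more enzyme RNA per fat cell cannot be told apart, and the part of marker expression in the enzyme changes was not tested. In MDI and in PP 10 of the 17 markers had a larger log2 change over DMSO than Ces1d, in BP 9 and in BPA 6. In ROSI 4 did, in TBT and in BBP 3, in DEHP 2 and in EB 1. For Mgll the number was 10 in MDI, 11 in TBT, 12 in ROSI and 15 in each of the other exposed groups. In PP the ratio of Ces1d to the marker average had the lowest mean of all groups (-0.67), but its arrays (-0.70 to -0.63) overlapped those of MDI (mean -0.60, -0.68 to -0.51), and in TBT it was the highest (1.09). Of 11 measured preadipocyte and fibroblast markers 8 fell and 1 rose in MDI, 10 fell in ROSI and in TBT, 5 in BPA and in PP, 4 in BP and 1 in BBP. In BBP 9.25% of all entries were called in either direction and 6.9% higher, so falls were the smaller part of the calls there. For the other groups the shares in either direction, with those called higher in brackets, were 38.4% (20.1%) in MDI, 30.8% (16.5%) in ROSI and 24.7% (14.1%) in TBT. They were 19.3% (12.3%) in BPA, 20.2% (12%) in PP and 21.6% (12.9%) in BP. Of 6 measured macrophage markers at most 1 was called in either direction in any group, and the highest array average of that list was 0.20 (BP).

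**Figure D5:**
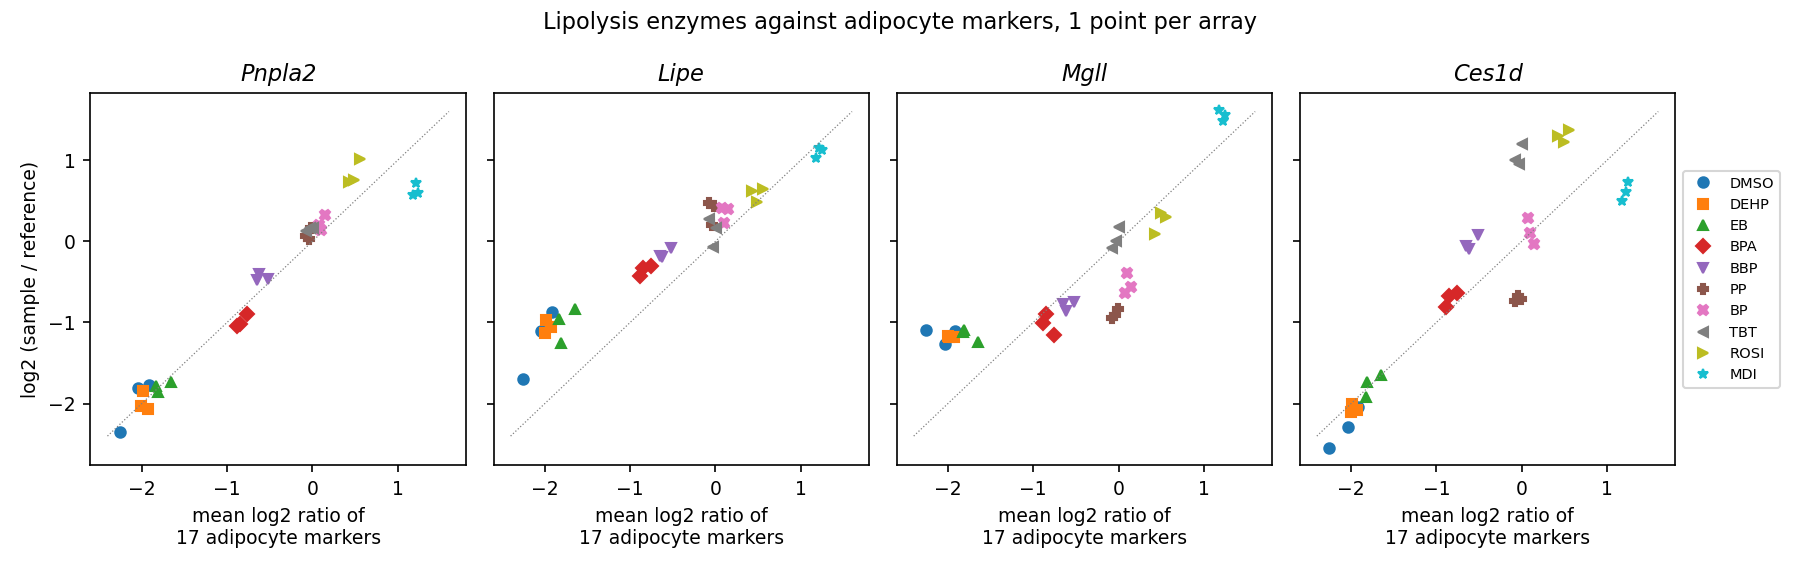
Log2 ratio of each lipolysis enzyme (1 panel each) against the mean log2 ratio of the 17 fat cell markers on the same array; each point is 1 of the 30 arrays, symbols are groups and the dotted line marks equal values. For Ces1d, all TBT, ROSI, BBP and BPA points lie above the line, and all MDI, PP, DMSO and DEHP points lie below it. All MDI and BPA points lie below it for Pnpla2, and all MDI points for Lipe. For Mgll, all ROSI, BPA, BBP, BP and PP points lie below it. Values are ratios to the shared reference, so the line does not mark equal RNA levels.

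Over the 10 group means, which share the reference and the arrays, Pnpla2 and Lipe had the most similar pattern among the enzymes (Pearson r = 0.970) and Mgll and Ces1d the least (0.747). By rank the order was another, with Pnpla2 and Mgll most alike (Spearman rho = 0.964), Mgll and Ces1d at 0.939 and Lipe and Ces1d least alike (0.806). These values, and the Pearson values that follow, describe 10 points. Counted from the highest Pearson r among named genes, Lipe was number 60 for Pnpla2 and Pnpla2 number 128 for Lipe. Ces1d was number 1890 for Mgll and Mgll number 1450 for Ces1d. The named genes most like Pnpla2 were the mitochondrial outer membrane protein gene Cisd1 (0.996), the DNA polymerase gene Poln (0.995) and the acyl-CoA binding protein gene Dbi (0.993). Poln rose by 2.73 ± 0.08 in MDI, 2.82 ± 0.08 in ROSI and 2.39 ± 0.08 in BP. Most like Lipe were Miga2 (0.994), A530016L24Rik (0.993) and Gnpat (0.993), a gene of ether lipid synthesis that rose by 2.15 ± 0.05 in MDI and 1.54 ± 0.05 in ROSI. Most like Mgll were the mitochondrial carrier gene Slc25a34 (0.992), Kbtbd11 (0.989) and Pde3b (0.988). Slc25a34 was, like Mgll, well below its MDI level in ROSI (-1.12 ± 0.12). Most like Ces1d were the cyclin gene Ccnd2 (0.983), the interferon-inducible gene Ifi27l2a (0.980) and Mlxipl (0.974), which encodes a glucose-responsive transcription factor. Ifi27l2a rose by 4.47 ± 0.11 in ROSI, 3.87 ± 0.11 in MDI and 3.58 ± 0.11 in TBT, and Ccnd2 by 0.47 ± 0.10, 0.37 ± 0.10 and 0.46 ± 0.10.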

How the data were processed

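Per the labels' protocols, total RNA was amplified and labelled, each sample with Cy3 and the shared reference with Cy5. The authors worked with limma, per the submitters' processing notes; its version, the background correction, the normalization and any probe filter are not given in the sources used here. The authors deposited a log ratio of reference over sample per probe, read as log2 because, for 8 agents, sign-turned group differences equalled the authors' own deposited fold changes (the DEHP table was not used here). The deposited adjusted p-value and fold change columns served that check only.

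Signs were turned to sample over reference. Of 23460 probes 26 controls were left out; 18966 had 1 gene symbol, 4468 none and 0 several. Probes of a gene were averaged, giving 19231 entries. All 30 arrays entered a single fit of group means in limma 3.58.1 (lmFit and eBayes, R 4.3.3; 20 residual and 3.56 prior degrees of freedom), p-values were adjusted by Benjamini-Hochberg over all entries of a comparison, and genes were called at an adjusted p under 0.05. The 9 comparisons with DMSO share its arrays; 6 were direct. The fit was tested on simulated data.

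The enzymes, the gene lists and the rule for naming genes were chosen with earlier results of these data known. Named were every enzyme, up to 4 called genes of a list with the smallest p in each direction, Abhd5, G0s2, Plin1, Pde3b, Prkar2b, measured Ces1 genes, and the 3 named genes most like each enzyme. The carboxylesterase genes Ces2e and Ces2g were measured too and are not described above. Both were called lower in PP than in DMSO (-0.24 and -0.50), and Ces2g also in BP (-0.27) and BBP (-0.26). Their values in other groups are not given here. Prkaca, Retn and Adipor2 were named after their values were seen. Alternatives were array centring, quantile normalization, robust eBayes, array weights, the replicate number as a block, only the compared groups, each probe alone, and leaving out each replicate. Deviations from the group means of samples with the same number correlated above 0.1 in all 3 pairs only for PP against DMSO (0.127, 0.207 and 0.166), where the block changed no enzyme's call. Promoter windows are RefSeq's (GRCm38.p6). Python 3.11.15 and matplotlib 3.10.9 drew the figures.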

Additional observations from a re-analysis of the deposited data

How the results depend on the processing

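For the 60 enzyme comparisons, centring each array on its median, robust eBayes and fitting each probe alone changed no call and no direction. The replicate number as a block changed 2 calls, both for Mgll, TBT against ROSI (-0.22, now called) and BPA against BBP (-0.23, now called). Array weights also led to a call of Mgll in TBT against ROSI (-0.22) and turned Mgll in DEHP (0.0074), and with the other groups left out of the fit Ces1d in EB (0.53) was no longer called. Quantile normalization, which forces all arrays onto the same distribution although their SDs ran from 0.151 to 0.333, turned Mgll in BPA (-0.33), BBP (-0.24), BP (-0.0388), EB (-0.0723) and PP (-0.48) and in DEHP against BBP (0.20), Pnpla2 in EB (-0.0261) and Ces1d in TBT against ROSI (0.0018). It ended the calls of Pnpla2 in BPA (0.16), Ces1d in EB (0.16) and Lipe in ROSI against MDI (-0.0936) and added Pnpla2 in ROSI against MDI (0.33). It also changed the counts of all calls from 131 to 20 in EB, from 3 to 15 in DEHP, from 1093 to 547 in DEHP against BBP and from 800 to 1707 in BP against PP, and the higher calls from 2363 of 3703 to 1437 of 2876 in BPA and from 1327 of 1778 to 641 of 1206 in BBP; the block changed the DEHP count from 3 to 16. Of 90 counts of genes called higher or lower in the 5 lists of other lipolysis genes, 14 moved by over 1.5 times under quantile normalization, 17 without DMSO replicate 2, a setting added after the data were seen, and 1 with centring. Leaving out 1 replicate kept direction and call in 334 of 360 refits. The others gave these ranges: Pnpla2 -0.19 to 0.10 in DEHP and -0.0029 to 0.29 in EB; Lipe -0.0633 to 0.35 in DEHP, -0.0333 to 0.38 in EB, -0.54 to -0.37 in TBT against ROSI and -0.11 to 0.0333 in BP against PP; Mgll -0.0746 to 0.0130 in DEHP, -0.0541 to 0.0472 in EB, 0.20 to 0.29 in PP, -0.30 to -0.16 in TBT against ROSI, -0.29 to -0.16 in BPA against BBP and 0.30 to 0.42 in BP against PP; and Ces1d 0.40 to 0.65 in EB. The causes of these changes were not tested. Signal over background of the probes was not analysed here, so how dim an enzyme was in DMSO is unknown.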
